A study of Mus musculus with 6 samples.

Results

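The MYC, MAX and MXD network was described here through 9 genes chosen by name: the activators Myc and Mycn, their shared partner Max, and the repressor genes Mxd1, Mxi1, Mxd3, Mxd4, Mnt and Mga. All 9 were found by symbol among the 17710 genes listed in any library, and all 9 passed the filter on low counts, which kept 13581 genes. RNA came from mouse embryonic stem (ES) cells of strain 129/Ola, kept on gelatin in N2B27-2iLIF, a serum-free medium with a pair of kinase inhibitors and the cytokine LIF, and from extraembryonic endoderm (XEN) cells of strain ICR, kept in RPMI1640 medium with FBS, Glut and BME. ES cells stand for the pluripotent epiblast, and XEN cells are self-renewing cells of the primitive endoderm, which gives rise to yolk sac. There were 3 libraries of each, named A, B and C, with 20675311 to 22375875 expected counts per library. The labels give neither the name of a line nor separate cultures, so p-values measure the spread between these libraries, and that spread may be technical. Because the groups differ in strain, medium and cell type at once, these cannot be told apart. The summed level of 5 ES cell markers was 3927 to 4018 CPM, that is, scaled counts per unit library size, in ES libraries and 1.21 to 1.79 in XEN libraries, and that of 6 XEN cell markers was 4.66 to 5.39 and 4957 to 5272. The 5 fibroblast markers summed to 2.90 to 3.39 CPM in ES libraries, nearly all of it Thy1, and to 0.248 to 0.564 in XEN libraries. The 5 trophoblast markers summed to 23.6 to 24.8 CPM in ES libraries, most of it Eomes, and to 8.54 to 9.69 in XEN libraries, while Cdx2 and Gata3 were higher in XEN libraries, at up to 1.03 and 1.24 CPM. The defining trophoblast marker Elf5 had at most 2 counts in a library.

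MYC proteins are basic helix-loop-helix leucine zipper factors that bind DNA as dimers with MAX and activate genes of growth, ribosome production and division. MXD proteins, MNT and MGA also dimerise with MAX and bind the same E-box motif, but bring in repressor complexes. Only RNA of these genes was measured here, so their shares of RNA are not shares of protein or of dimers. In mouse ES cells MYC and MYCN support self-renewal with overlapping roles, and MGA with MAX keeps germline genes low.

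The E-box that these dimers prefer, CACGTG, reads the same on both strands. It was looked for in RefSeq promoters of build GRCm38.p6, from 250 bases before to 50 bases after a gene's start. Of the 9 members 8 had a promoter in that table, and Myc did not. The motif was in the promoters of 3 of these 8 genes, against 8.09% of all 27025 genes in the table. These 3 windows are shown because only these members held the motif, and their levels went different ways: Mxd4 rose steeply, Max rose slightly and Mnt fell. E-box bases are in capitals, the strand is that of the gene, and the windows lie at chr5:34187912-34187941 (minus strand) for Mxd4, at chr11:74830789-74830818 (plus strand) for Mnt and at chr12:76962246-76962263 (minus strand) for Max.
Mxd4: gggctgggccacCACGTGctgttgctaagc
Mnt: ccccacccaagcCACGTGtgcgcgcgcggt
Max: ggtgagcccggtCACGTG
The E-box began 219 bases before the start of Mxd4, 123 bases before that of Mnt and 3 bases before that of Max. A match is a description of these letters and not a measured binding site.

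Both activator genes rose in XEN cells, Myc about 10-fold and Mycn by less than 2-fold, yet Mycn stayed the more abundant of the pair in every library. Expected counts of Myc (gene 17869) were 159, 150 and 138 in ES libraries A, B and C and 1315, 1421 and 1400 in XEN libraries. These counts correspond to 3.35, 2.98 and 2.73 FPKM, the authors' scale of fragments per transcript length and library size, in ES libraries and to 25.7, 27.7 and 28.9 in XEN libraries. All XEN libraries were far above all ES libraries. After scaling, Myc had 6.62 ± 0.669 CPM in ES and 65.8 ± 3.87 CPM in XEN cells (SD, n = 3), a log2 fold change of 3.31 ± 0.10 (SE; edgeR adjusted p = 2.83e-20). In bulk RNA, fewer cells with a transcript and less of it per cell cannot be told apart. Mycn (gene 18109), the family member best known from neural and embryonic tissue, had 57.3, 55.98 and 53.6 FPKM in ES libraries and 73.2, 79.5 and 78.75 in XEN libraries. The groups did not overlap. Its log2 fold change was 0.60 ± 0.04 (edgeR adjusted p = 1.59e-11), and it did not pass the edgeR test against a change of 2-fold. Mycs, a near copy of Mycn, had 2 counts in a single ES library and 0 in the others, so few reads of Mycn can have been assigned to it.

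**Figure D1:**
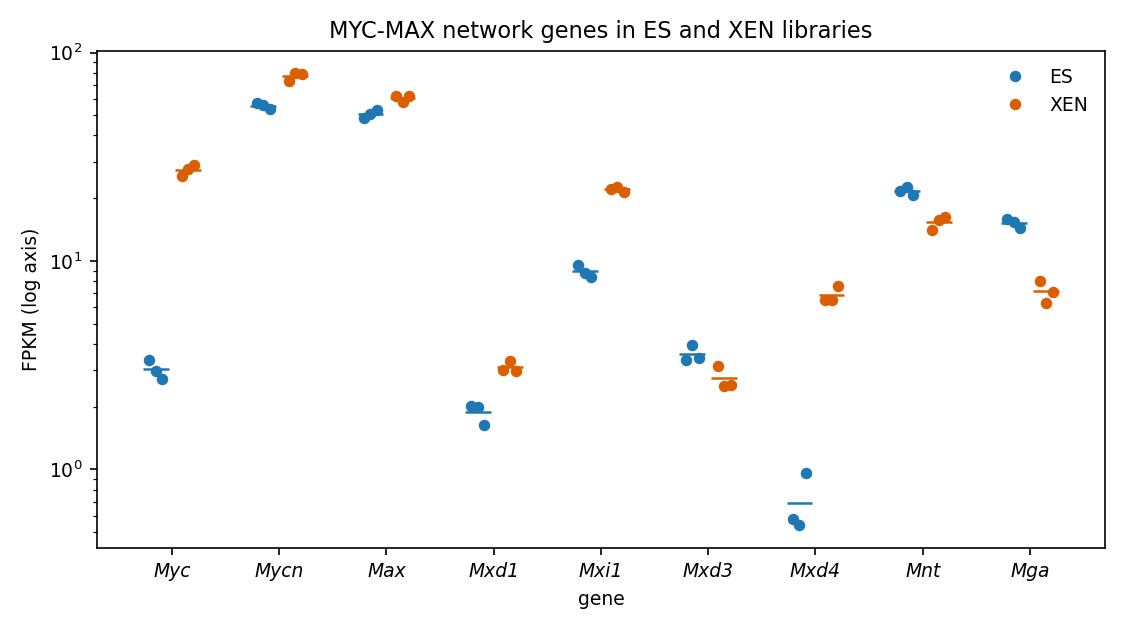
FPKM (log axis) of the 9 network genes in each of 3 ES and 3 XEN libraries; points are libraries and lines are group means. Myc and Mxd4 lie farthest above their ES values in XEN cells, while Mnt and Mga lie lower in XEN cells.

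Max, the shared partner of the others, rose by the smallest step among the 6 members that rose. It had 48.5, 50.4 and 52.8 FPKM in ES libraries and 61.6, 57.7 and 61.65 FPKM in XEN libraries (gene 17187). The XEN libraries were higher without overlap, by a small step. The log2 fold change of Max was 0.38 ± 0.05 (edgeR adjusted p = 1.19e-07). It was 0.23 with upper-quartile scaling, an alternative that moved the median gene by -0.15.

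Among the 4 MXD genes, which encode repressors often linked to differentiation and exit from the cell cycle, 3 rose in XEN cells and Mxd3 did not pass the test. Mxd4 (gene 17122) had 13, 13 and 23 counts in ES libraries and 158, 158 and 174 in XEN libraries. On the scale per length these were 0.58, 0.54 and 0.96 FPKM against 6.51, 6.50 and 7.59 FPKM. Mxd4 was thus scarce in ES cells, with few counts behind each value, and about as abundant as Mga in XEN cells. Its log2 fold change was 3.42 ± 0.24 (edgeR adjusted p = 3.15e-13). Mxi1 (gene 17859), also called MXD2, had 9.58, 8.75 and 8.39 FPKM in ES libraries and 22.2, 22.7 and 21.35 FPKM in XEN libraries. It was the most abundant MXD gene in both cell types. Mxi1 rose by a log2 fold change of 1.46 ± 0.06 (edgeR adjusted p = 5.14e-17). Mxd1 (gene 17119) had 2.02, 1.99 and 1.64 FPKM in ES and 3.01, 3.33 and 2.98 FPKM in XEN libraries. The groups were apart at a low level, with a log2 fold change of 0.85 ± 0.11 (edgeR adjusted p = 4.65e-08).

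Mxd3 (gene 17121), an MXD gene linked to proliferating cells, was the only member to miss the threshold. It had 83, 104 and 90 counts in ES libraries and 84, 67 and 64 in XEN libraries, and library A of XEN lay within the ES range. Its log2 fold change was -0.26 ± 0.13 (edgeR adjusted p = 0.111). With upper-quartile scaling the change was -0.41 and passed (edgeR adjusted p = 0.0158), and without XEN library A it was -0.38 and passed as well (edgeR adjusted p = 0.0382). Over 16 alternatives its adjusted p ran from 0.00744 to 0.332.

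Mnt and Mga, the repressor genes that were highest in ES cells, both fell in XEN cells. Mnt (gene 17428), a broadly expressed antagonist of MYC, had 21.7, 22.5 and 20.7 FPKM in ES libraries and 14.1, 15.65 and 16.2 FPKM in XEN libraries. It fell by 0.37 on the log2 scale (SE 0.07, edgeR adjusted p = 9.43e-07). Mga (gene 29808), a very large protein that carries a T-box as well as the dimerisation domain and anchors the polycomb-type complex PRC1.6, had 15.98, 15.4 and 14.4 FPKM in ES libraries and 8.02, 6.32 and 7.11 in XEN libraries. The level in each XEN library was well under that in each ES library. It fell by 0.96 on the log2 scale (SE 0.11, edgeR adjusted p = 5.22e-05) and did not pass the test against 2-fold (edgeR adjusted p = 0.771).

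Of the 9 members, 6 rose, 2 fell and 1 did not pass, in a comparison that called 88.7% of 13581 tested genes, 42.0% of them as higher and 46.7% as lower in XEN cells. Passing the test therefore does not set the network apart, and the sizes of the changes carry more of the information. The members Myc, Mxd4 and Mxi1 passed the edgeR test against 2-fold, as did 42.7% of all tested genes. The median log2 fold change of the members was 0.60, beside -0.07 over all tested genes. For 8 members the CPM of the groups did not overlap, which held for 89.4% of all tested genes. Libraries of a group were alike for most members: the coefficient of variation of CPM was 2.82% to 13.5% for 8 members and reached 33.4% for Mxd4 in ES cells.

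The order of levels per length was headed by Mycn and Max in both cell types, and the order below them differed. In ES cells the FPKM order was Mycn, Max, Mnt, Mga, Mxi1, Mxd3, Myc, Mxd1 and Mxd4. Of these neighbours only Mxd3 and Myc had overlapping library values. In XEN cells it was Mycn, Max, Myc, Mxi1, Mnt, Mga, Mxd4, Mxd1 and Mxd3, where Mga overlapped Mxd4 and Mxd1 overlapped Mxd3. Myc went from rank 7 to rank 3 and Mnt from rank 3 to rank 5.

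The balance of the activator pair moved toward Myc in XEN cells. Myc held 5.52%, 5.05% and 4.845% of the summed FPKM of Myc and Mycn in ES libraries and 25.96%, 25.87% and 26.9% in XEN libraries. Put as a ratio, Mycn was 18.5 ± 1.29 times as abundant as Myc in ES cells and 2.81 ± 0.0792 times in XEN cells (SD, n = 3). The share was 21.1 percentage points higher in XEN cells, and the exact permutation test (two-sided) gave p = 0.1, the lowest value that 3 against 3 libraries can reach. In absolute terms the members of the pair gained similar amounts, 24.4 FPKM for Myc and 21.5 FPKM for Mycn.

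**Figure D2:**
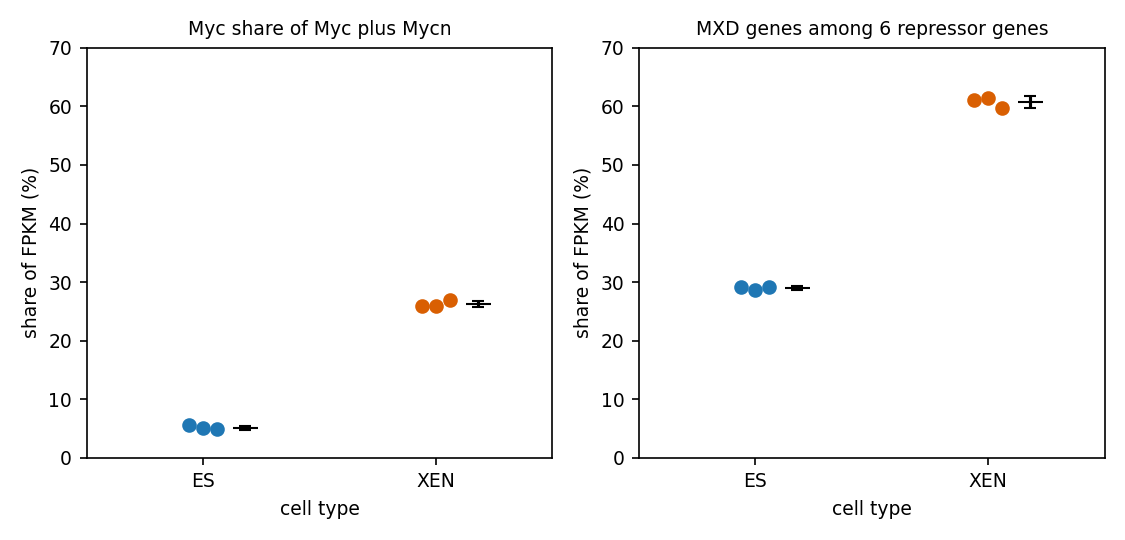
Share of FPKM (%) in each library for Myc within Myc plus Mycn (left) and for Mxd1, Mxi1, Mxd3 and Mxd4 within the 6 repressor genes (right); points are libraries, and black marks are the mean with its SD (n = 3). Each XEN library lies above the 3 ES libraries in both panels.

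The repressor genes exchanged rank as well, between the MXD genes on one side and Mnt and Mga on the other. This grouping was chosen after the values were seen and is given without a test. The MXD genes together had 15.5, 15.25 and 14.4 FPKM in ES libraries and 34.9, 35.03 and 34.5 FPKM in XEN libraries. Mnt and Mga together had 37.7, 37.95 and 35.03 FPKM in ES and 22.2, 21.97 and 23.3 FPKM in XEN libraries. The MXD genes thus made up 29.0% ± 0.290 of repressor FPKM in ES cells and 60.75% ± 0.960 in XEN cells. Of expected counts, not divided by length, they made up 15.7% ± 0.343 and 44.6% ± 1.85. Summed over the 6 repressor genes, the level was 51.95 ± 2.17 FPKM in ES and 57.3 ± 0.445 FPKM in XEN cells, a far smaller step than those of its parts.

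Set against each other, the genes for MAX partners gave activators a larger share in XEN cells. Myc and Mycn together had 58.7 ± 2.17 FPKM in ES and 104.6 ± 4.97 FPKM in XEN cells. Their share of the summed FPKM of the 8 partner genes was 53.3%, 52.6% and 53.3% in ES libraries and 63.4%, 65.3% and 65.1% in XEN libraries. The difference was 11.6 percentage points (exact permutation test, p = 0.1), or 6.07 points when Mga was left out. It was 9.85 points with Mycl, a further MYC family gene, counted among the activators. Whether activators made up the larger part depends on dividing by length: of expected counts, their share was 28.4% ± 0.302 in ES and 45.6% ± 1.70 in XEN cells, still without overlap. Mycn alone held 50.3% ± 0.388 of partner FPKM in ES and 47.65% ± 0.723 in XEN cells, while Myc went from 2.73% ± 0.191 to 16.95% ± 0.513. Mnt fell from 19.6% ± 0.511 to 9.465% ± 0.364 of partner FPKM and Mga from 13.8% ± 0.231 to 4.43% ± 0.659.

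**Figure D3:**
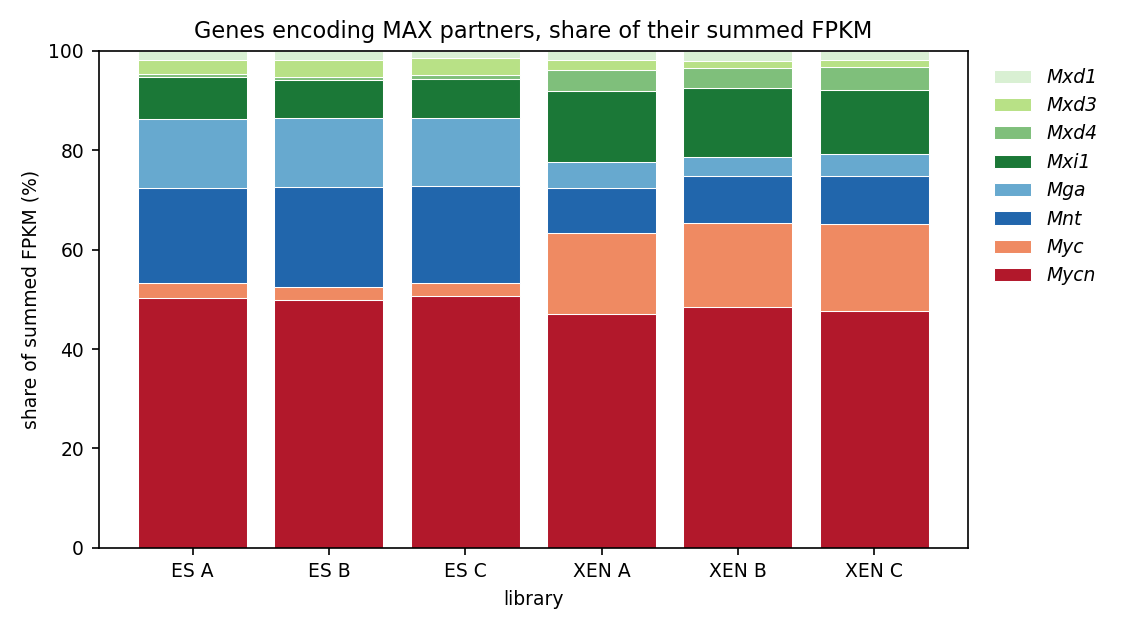
Share (%) of each of the 8 genes for MAX partners in their summed FPKM, 1 stacked bar per library. Mycn takes the largest part of every bar, Myc goes from 2.73% to 16.95% on average, and the parts of Mnt and Mga are smaller in XEN libraries.

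Per length, Max rose less than the sum of its partners did, although Mnt and Mga fell and Mxd3 did not pass. The log2 ratio of Max FPKM to the summed FPKM of the partners was -1.232, -1.153 and -1.003 in ES libraries and -1.34, -1.51 and -1.42 in XEN libraries. The difference of -0.30 had a two-sided exact permutation p = 0.1. This direction depends on dividing by length: with expected counts, where the long Mga transcript weighs more, the difference was 0.13 (two-sided exact permutation p = 0.2).

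The deposited tables also list a length per gene and library, which can vary with the estimated mix of its transcripts. For Mxi1, which has 3 RefSeq transcripts in the tables, this length was 5061, 5046 and 5035 bases in ES libraries and 5121, 5117 and 5116 bases in XEN libraries. The groups did not overlap. Levels of single transcripts were not analysed here. In the GENCODE M21 annotation, exons of Mxi1, Mxd3 and Mxd4 share 194, 105 and 514 bases with genes on the opposite strand (Gm10197, Prelid1 and Gm42846). The sources used here do not say whether reads were counted by strand, so reads from these stretches cannot be told apart.

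Of the other genes of the extended network, Mlx and its partner Mlxip rose and Mycl and Mlxipl fell in XEN cells. MLX is a MAX-like protein that dimerises with the sugar-sensing factors encoded by Mlxip and Mlxipl and also with some MXD proteins and MNT. Mlx had 40.2 ± 2.67 CPM in ES and 56.6 ± 0.774 CPM in XEN cells, and Mlxip 24.85 ± 0.717 and 66.3 ± 2.52 CPM. Mycl, the remaining MYC family gene with a full DNA-binding domain, went from 16.1 ± 0.462 to 6.14 ± 0.820 CPM, a log2 fold change of -1.39 ± 0.11 (edgeR adjusted p = 2.82e-11). Mycl was thus above Myc in ES libraries on the scale per length, at 5.15 ± 0.158 against 3.02 ± 0.312 FPKM, and below it in XEN libraries, at 1.79 ± 0.225 against 27.4 ± 1.65 FPKM. Mlxipl, named to complete this list after its values were seen, had a total of 48 counts in ES cells and of 3 in XEN cells, a ratio of ES to XEN of 14.9 with an exact (Clopper-Pearson) 95% interval of 4.79 to 74.6, which covers counting error only. Bmyc, a MYC relative without the DNA-binding end, chosen after its values were seen, had 6.02 ± 0.400 and 2.55 ± 0.441 CPM.

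Cofactors of the network changed in both directions. Of 15 genes for MYC coactivators 4 rose and 9 fell, where 42.0% of all tested genes rose and 46.7% fell. The list's median log2 fold change was -0.20 beside -0.07 for all tested genes. Trrap, the scaffold that MYC recruits together with histone acetyltransferases, rose from 76.2 ± 6.51 to 138 ± 19.7 CPM. Wdr5, a histone methyltransferase subunit that also binds MYC, fell from 476 ± 5.83 to 90.5 ± 0.687 CPM, and Actl6a, an actin-related subunit of chromatin remodellers, fell from 188 ± 5.41 to 82.2 ± 0.374 CPM. The acetyltransferase gene Crebbp rose from 25.3 ± 1.06 to 43.3 ± 4.49 CPM.

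Of 16 genes for the SIN3 and HDAC corepressor used by MXD proteins and MNT, 12 fell and 4 rose, where 46.7% of all tested genes fell and 42.0% rose. The list's median log2 fold change was -0.43, beside -0.07 for all tested genes. Sap30, a SIN3 subunit, fell from 53.7 ± 2.05 to 3.62 ± 0.226 CPM and Arid4a, a chromatin-binding subunit, from 41.8 ± 3.53 to 12.5 ± 1.10 CPM. Rbbp7, a histone-binding protein shared by several complexes, was the most abundant of the list per length and rose from 438.5 ± 1.42 to 1213 ± 27.8 CPM. Brms1 rose from 24.15 ± 0.484 to 53.6 ± 2.45 CPM.

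The partners of MGA in PRC1.6 changed in both directions. Of 11 genes 5 rose, 4 fell and 2 did not pass (42.0% and 46.7% of all tested genes rose and fell), while upper-quartile scaling gave 5 higher and 6 lower. Wdr5, named above as a coactivator and also in this list, had the largest fall of it, with a log2 fold change of -2.40. L3mbtl2, a subunit specific to this complex, fell from 153 ± 2.38 to 88.3 ± 1.64 CPM. E2f6, its repressive E2F subunit, rose from 43.25 ± 2.85 to 86.1 ± 2.56 CPM, and Yaf2, an adaptor of the RING subunit, rose from 5.26 ± 1.10 to 53.65 ± 1.62 CPM. Cbx3, the most abundant partner per length, had 296 ± 12.4 and 295 ± 5.28 CPM and did not pass (edgeR adjusted p = 0.916), but fell by 0.15 on the log2 scale with upper-quartile scaling (edgeR adjusted p = 0.00153).

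Germline genes that MGA and MAX are known to repress in ES cells were higher in the ES libraries, where Mga was also higher. All 10 tested genes of the 13 in this list were lower in XEN cells, beside 46.7% of all tested genes. The median log2 fold change was -6.75, or -6.03 with the 2 genes at 0 counts in XEN cells set at their bound. Most of the 10 tested genes had at most 0.248 CPM in each XEN library. These passed the filter on low counts only through ES libraries, so they could only be called lower. Sycp1, picked after its values were seen, went only from 2.90 ± 0.571 CPM in ES to 2.12 ± 0.220 CPM in XEN cells. Tex101, with 0 counts in ES and 2 in XEN cells, was not tested. Sycp3, a structural protein of meiotic chromosomes, had 16.2 ± 1.46 CPM in ES and 0.0946 ± 0.0457 CPM in XEN cells. Hormad1, a meiotic checkpoint protein, had a total of 793 counts in ES cells and of 1 in XEN cells, which is 737 times the XEN level (exact 95% interval, for counting error only, from 131.9 to 29150). Stk31, a list gene singled out after its values were seen, was at 0 counts throughout the XEN libraries, hence at least 208-fold lower in them, taking a floor of 3 counts over the group. Promoters of 9 of 13 list genes held CACGTG, or 69.2% beside 8.09% of all genes in the promoter table. Of the MYC target lists taken up further on, it was in the promoters of 24.0% of 25 matched genes of the nucleolus and ribosome list, 39.3% of 28 of growth and metabolism and 25.0% of 12 of the cell cycle list. The names in the germline list were picked from knowledge of E-box genes of ES cells, and those of the target lists as well-known MYC targets, so these shares are descriptions only.

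Of 15 genes for MYC protein turnover 10 rose and 4 fell, where 42.0% of all tested genes rose and 46.7% fell. The median log2 fold change of the list was 0.23, and upper-quartile scaling gave 7 higher and 4 lower with a median of 0.084, beside -0.21 for all tested genes at that scaling. Aurka, a kinase that shields MYCN from degradation, rose from 117 ± 3.07 to 268 ± 9.998 CPM, and Gsk3b, the kinase that marks MYC for degradation and that one of the 2i inhibitors blocks, rose from 84.2 ± 1.12 to 177 ± 5.58 CPM. Fbxw7, the ubiquitin ligase subunit that reads this mark, fell from 46.65 ± 1.37 to 30.4 ± 2.50 CPM, and Usp28, a deubiquitinase that opposes it, fell from 129 ± 2.74 to 36.3 ± 0.776 CPM. Of 12 genes for proteins that bind Myc mRNA 8 rose and 3 fell, beside the same shares of 42.0% and 46.7% over all tested genes, and upper-quartile scaling gave 5 and 4. Igf2bp2, of a family that stabilises Myc mRNA, rose from 189 ± 1.08 to 529 ± 1.92 CPM and Tia1, a translation repressor, from 41.1 ± 2.12 to 79.8 ± 1.71 CPM. Zfp36l1, which promotes decay of AU-rich mRNA, fell from 183.5 ± 4.70 to 79.0 ± 6.93 CPM and Hnrnpd, which binds the same kind of element, from 398.7 ± 3.601 to 295 ± 3.59 CPM. Ptbp1, the most abundant of this list per length, had 936 ± 12.55 and 1008 ± 42.1 CPM (log2 fold change 0.11, edgeR adjusted p = 0.0158), and its direction turned with upper-quartile scaling (-0.040).

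Genes widely used as MYC targets rose and fell in XEN cells. Of 30 targets of the nucleolus and ribosome biogenesis 7 rose and 18 fell, where 42.0% of all tested genes rose and 46.7% fell. Their median log2 fold change was -0.29 beside -0.07 for all tested genes. With upper-quartile scaling 5 were higher and 20 lower, with a median of -0.43 beside -0.21 for all tested genes. Npm1, nucleophosmin, the most abundant of these targets per length, fell from 4302 ± 102 to 2608 ± 10.65 CPM, and Dkc1, the pseudouridine synthase of the nucleolus, from 378 ± 11.2 to 110.5 ± 2.71 CPM. Ubtf, a factor of RNA polymerase I, fell from 230 ± 1.27 to 127 ± 3.36 CPM. Nolc1, a nucleolar phosphoprotein gene, rose from 322 ± 15.65 to 475 ± 23.6 CPM. Nop16, also nucleolar, had 57.3 ± 1.64 CPM in ES and rose to 82.5 ± 1.33 CPM.

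Of 32 targets of growth and metabolism 12 rose and 15 fell, which is near the 42.0% and 46.7% of all tested genes (median log2 fold change -0.017). With upper-quartile scaling 10 were higher and 18 lower (median -0.16). Odc1, ornithine decarboxylase and a classical E-box target, rose from 341 ± 9.68 to 895 ± 9.45 CPM, and Ldha, lactate dehydrogenase A, from 645 ± 15.7 to 1377 ± 58.9 CPM. Tfrc, the transferrin receptor, fell from 377 ± 15.55 to 79.25 ± 6.06 CPM and Shmt2, a mitochondrial one-carbon enzyme, from 299 ± 8.34 to 156 ± 15.5 CPM. Eno1, the most abundant member per length, fell from 1602 ± 37.7 to 1333 ± 34.2 CPM.

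The 15 cell cycle targets were evenly divided, with 7 higher and 7 lower, again near the shares of 42.0% and 46.7% over all tested genes. The D cyclin genes changed in opposite directions: Ccnd2 rose from 0.516 ± 0.159 to 375 ± 11.9 CPM and Ccnd1 fell from 157 ± 3.04 to 2.40 ± 0.111 CPM. Tert, the telomerase reverse transcriptase, had 427, 465 and 421 counts in ES libraries and fell to 4, 7 and 6 in XEN libraries, Cul1, a ubiquitin ligase scaffold, rose from 113 ± 2.71 to 385 ± 12.6 CPM, and Cdk4, the most abundant per length, fell from 597 ± 15.6 to 446 ± 16.65 CPM. A further list holds genes that MYC represses together with MIZ1, and also Zbtb17, the gene for MIZ1 itself. Of its 10 tested genes 5 rose and 4 fell, Zbtb17 included, beside 42.0% and 46.7% over all tested genes. Upper-quartile scaling gave 3 higher and 5 lower. Ndrg1, a stress-responsive gene, rose from 62.3 ± 1.55 to 173 ± 15.8 CPM and Gadd45b from 6.23 ± 0.431 to 20.55 ± 1.05 CPM, whereas Ndrg2 fell from 15.5 ± 0.436 to 0.1275 ± 0.0294 CPM. Zbtb17 fell from 31.38 ± 1.002 to 17.1 ± 2.04 CPM. The cell cycle inhibitor gene Cdkn1a had 156 ± 4.12 and 158.5 ± 5.98 CPM and did not pass (edgeR adjusted p = 0.604), but fell by 0.12 on the log2 scale with upper-quartile scaling.

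**Figure D4:**
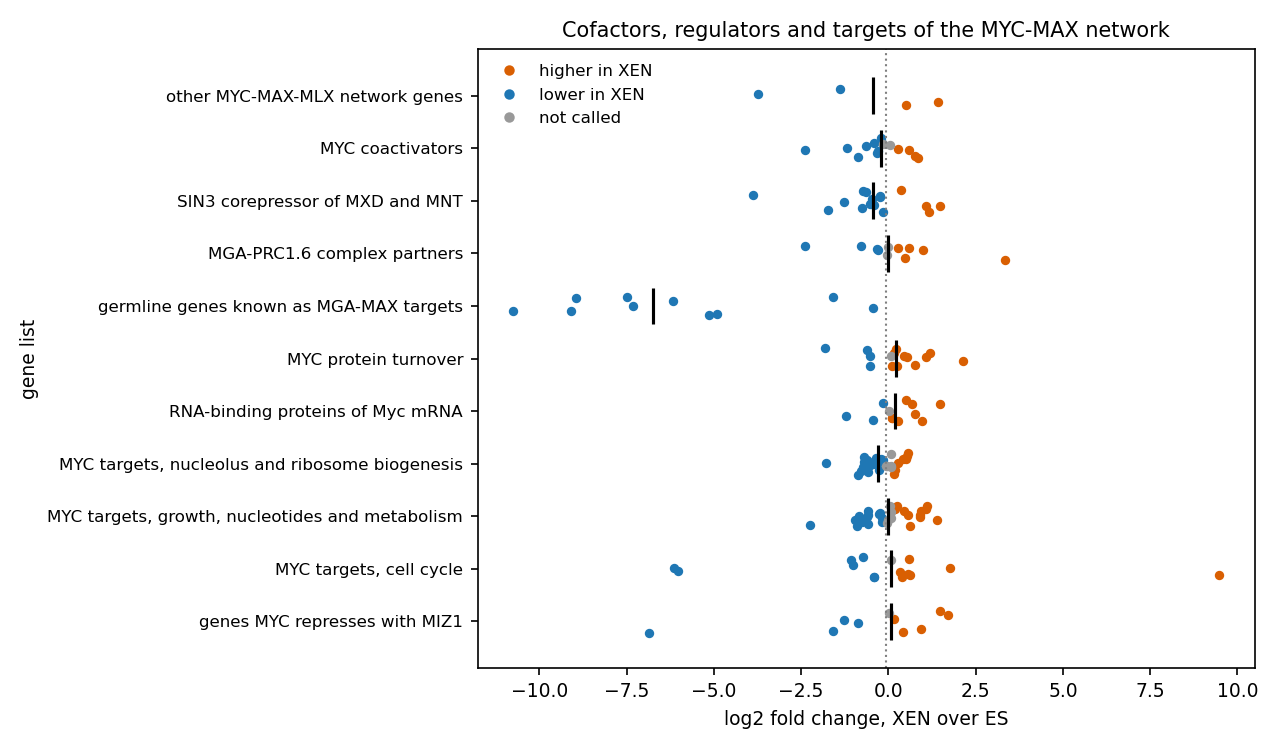
Log2 fold change, XEN over ES, of the tested genes of 11 lists related to the network; points are genes coloured by the edgeR call at an adjusted p of 0.05, black bars are list medians and the dotted line is the median of all tested genes (-0.07). The germline list, most of whose genes passed the filter on low counts only through ES libraries, lies to the left with a median of -6.75. The target lists spread to both sides.

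Profiles most like those of the activators were found by the root mean square distance of log2 CPM over the 6 libraries. Closest to Myc were Ltbr, a receptor of the tumour necrosis factor family (distance 0.13), Tmem181a (0.19) and Atxn1l (0.20). Closest to Mycn were Wars, a tryptophan tRNA synthetase gene (0.042), Tacc3, a spindle protein gene (0.049), and Gnb2, a G protein subunit gene (0.0725). With 2 groups the distance rests mostly on the pair of group levels.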

How the data were processed

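Per the submitters' processing notes, mm9, Bowtie2, RSEM and DESeq2 were used, with no versions, roles or order. The authors deposited 1 table per library with expected counts and FPKM per gene. Genes absent from a table were taken as 0. Network members and lists were chosen with earlier results of these data known. Expected counts were rounded, filtered by filterByExpr, scaled by TMM (factors 0.951 to 1.05) and tested by the edgeR 4.0.16 quasi-likelihood test in R 4.3.3, modelling cell type alone, with p-values adjusted over all tested genes by Benjamini-Hochberg at 0.05. glmTreat tested the same fit against 2-fold. Fold changes give XEN over ES, and their SE comes from log2 CPM (prior count 2). FPKM carries no composition factor, so FPKM differences lie below scaled CPM differences. Shares of FPKM were compared by exact permutation. Genes named from a list were up to 2 called genes per direction with the largest change (mean CPM 5 or more), plus the highest by FPKM. Alternatives included DESeq2 1.42.0 and limma 3.58.1. The fit was tested on simulated data in which few genes changed, equally up and down. That setting cannot check the scaling where most genes change, as here. No pair of libraries agreed within sampling noise (chi-square over degrees of freedom at least 2.31).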

Additional observations from a re-analysis of the deposited data

How the results depend on the processing

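Over 16 alternatives of the fit (scaling, filter, test, replicate block, FPKM, each library left out), 8 members kept their direction and passed, and Mxd3 kept its direction and passed in 5. Log2 fold changes ran from 2.82 to 3.39 for Myc, from 0.45 to 0.64 for Mycn and from -1.11 to -0.88 for Mga. The range was widest for Mxd4, from 2.22 to 3.72. Upper-quartile and no composition factors moved the median gene by -0.15 and -0.13. Of the list genes named, 3 with small changes turned direction: Ptbp1, the most abundant gene of its list, from 0.11 to -0.021 with log2(FPKM + 1) and log2(FPKM + 0.1), -0.026 with no composition factors and -0.040 with upper-quartile factors, and Cdkn1a from 0.023 to -0.11, -0.11, -0.11 and -0.12. Cbx3, at -0.0045, was 0.0068 with no filter and ran from -0.039 to 0.0165 with single libraries left out (0.0165 without ES library C, 0.012 without XEN library C). The log2 ratio of Max to its partners turned from -0.30 to 0.13 with expected counts. The replicate block gave 12000 calls beside 12044 without it, and 8 of 9 members in both. Same-lettered libraries correlated only by 0.008 to 0.033 in their deviations from the group means, although each library correlated best with its own letter. With 3 libraries per group, these small values cannot settle whether the letters pair them. Mxd4 in ES cells rests on 13 to 23 counts per library.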
